A study of Mus musculus with 8 samples.

Results

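Expression of 10 genes of the LIF and Stat3 pathway was examined in mouse ES cells that differ in the gene *Tbxt*. The genes were taken by name: the receptor chains *Lifr* and *Il6st*, the kinases *Jak1* and *Jak2*, the transcription factor *Stat3*, and the target genes *Socs3*, *Bcl3*, *Pim1*, *Pim3* and *Gadd45g*. The 10 genes and the further lists below were chosen with earlier results of these data known. Their counts beside the shares of all tested genes are therefore descriptions and do not test an excess. All 10 were found among the 48440 genes listed in the count files. All 10 passed the filter on low counts that left 17049 genes for testing.

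RNA was sequenced at day 1 of in vitro differentiation in 4 genotypes with 2 libraries each. The parental line was MK6, derived from C57BL/6J mice. Wild-type cells carry no edit, TbxtΔexon6/Δexon6 cells lack exon 6 of *Tbxt* on both alleles, TbxtΔexon6/+ cells lack it on 1 allele, and TbxtinsASAY/insASAY cells carry a pair of inserted human Alu elements, AluSx1 in intron 5 and AluY in intron 6, on both alleles. Every line was moved to medium without LIF and without the inhibitors of MEK and GSK3 used to maintain it, and was then given the GSK3 inhibitor CHIR99021, so the libraries compare genotypes and not LIF with no LIF. The insertion was made in cells grown on feeder fibroblasts with a selection cassette later removed by Cre, and the exon deletions in feeder-free cells. The TbxtΔexon6/Δexon6 libraries come from different clones, whereas the sources used here do not say this of the other lines. The 4 genotypes share 1 estimate of spread per gene, so p-values of the other lines also carry the spread between these clones. Those p-values are not known to measure a spread between clones of the other lines themselves.

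Between 24618587 and 28445952 reads fell on genes in a library. *Tbxt* itself was counted with 47 and 42 reads in wild-type, 26 and 22 in TbxtΔexon6/Δexon6, 39 and 54 in TbxtΔexon6/+ and 30 and 29 in TbxtinsASAY/insASAY libraries, and a count over the whole gene does not show the loss of exon 6. Levels are given as CPM, read counts scaled to library size with edgeR's TMM method, and levels of different genes are compared only as RPKM, which also divides by exon length. A gene is said to have risen or fallen, or is called, when its edgeR quasi-likelihood test gave a Benjamini-Hochberg adjusted p under 0.05 over all tested genes and its log2 fold change was past 0.5 in size. Markers of undifferentiated ES cells were present in every library, at a summed level of 1618 to 1666 CPM in wild-type, 1180 to 1311 CPM in TbxtΔexon6/Δexon6, 1280 to 1316 CPM in TbxtΔexon6/+ and 1352 to 1392 CPM in TbxtinsASAY/insASAY libraries. Much of the difference in this sum lay in *Dppa5a*. Its mean was 544 CPM in wild-type and 200, 182 and 270 CPM in TbxtΔexon6/Δexon6, TbxtΔexon6/+ and TbxtinsASAY/insASAY cells. The mean of *Pou5f1* was 288 CPM in wild-type and 185, 180 and 230 CPM in the same lines. *Lin28a* went the other way, from 292 CPM in wild-type to 393, 513 and 372 CPM in the same lines. The sum is therefore no measure of a shared fall of these markers. In such bulk RNA, fewer cells of a type and less RNA per cell cannot be told apart.

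LIF is a cytokine that keeps mouse ES cells in self-renewal. It binds the receptor chain Lifr, which pairs with the shared chain Il6st (gp130). The Jak kinases bound to these chains then phosphorylate Stat3, which enters the nucleus and switches on target genes, among them *Socs3*, whose product inhibits the same receptor complex. Stat3 dimers bind DNA at a short palindrome, TTCNNNGAA, in which N is any base.

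That motif was looked for in RefSeq promoter windows of GRCm38.p6, each of 300 bases running from 250 bases before a transcript's start to 50 after it. The palindrome reads the same on both strands. It occurred in 2726 of 32851 windows (8.30%), and the narrower form TTCCNGGAA, which is contained in it, in 377 (1.15%). Of the 10 genes only *Socs3* held it, with its first base at position -154 from the annotated start. Among the other genes of the pathway examined, *Icam1*, encoding an adhesion molecule, held it at position -42, and *Cish*, encoding another inhibitor of cytokine signalling, held it at positions 1 and 12, in an annotated exon. *Sgk1*, another Stat3 target, held it at position -223, and *Nfkb2*, for an NF-κB subunit, at -148, also in an annotated exon. Genes without a window were not searched. Windows existed for 7 of 14 inhibitors and phosphatases, 9 of 11 other Stat3 targets and 4 of 5 relatives of the target genes. Of those with a window, 1, 2 and 1 held the motif. None of the 5 cytokine, 4 receptor and 7 other Jak and Stat genes with a window held it. The sequences of *Socs3*, *Icam1* and *Cish* are shown because *Socs3* is 1 of the 10 genes and the others fell in all 3 mutant lines. That choice rests on the results, and a link of the motif to the falls was not tested. Against wild-type *Sgk1* was not called in any line, and *Nfkb2* fell only in TbxtΔexon6/+ cells. *Pim1*, *Pim3*, *Tfcp2l1*, *Jak3* and *Gadd45b* fell in all 3 lines with no motif in their windows. Each sequence is read on the gene's own strand with the match in capitals.
Socs3, chr11:117969502-117969530, minus strand: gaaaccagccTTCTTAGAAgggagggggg
Icam1, chr9:21015888-21015916, plus strand: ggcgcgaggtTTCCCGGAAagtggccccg
Cish, chr9:107296649-107296677, plus strand: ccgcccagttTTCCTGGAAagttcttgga
Cish, chr9:107296660-107296688, plus strand: tcctggaaagTTCTTGGAAatctgtcaaa

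The match in *Icam1* and the first match in *Cish* are of the narrower form, and that in *Socs3* is not. Of the 10 genes 1 held the motif, beside 8.30% of all windows. A share of genes and a share of windows are unlike measures, since *Lifr* and *Pim1* have more than 1 window. A match of letters is not a bound site, and its absence from a window says nothing of sites elsewhere.

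The 10 genes spanned a wide range of levels per exon length. In wild-type cells *Pim1* stood at 109 RPKM, above 97.5% of the tested genes with a length, and *Pim3* at 50.7 RPKM, above 94.1%. *Gadd45g* and *Jak1* were next, at 22.8 and 21.9 RPKM. *Stat3* (8.85 RPKM), *Il6st* (7.65 RPKM) and *Jak2* (7.14 RPKM) lay in the middle of the 10. *Bcl3* (3.90 RPKM) and *Socs3* (3.50 RPKM) were close to the median of all tested genes. *Lifr* was the lowest of the 10, at 0.937 RPKM, with only 25.9% of the tested genes below it. The counts behind the lower levels were 177 to 342 reads per library for *Lifr*, 174 to 296 for *Socs3* and 76 to 336 for *Bcl3*, and these genes have the larger counting errors.

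**Figure D1:**
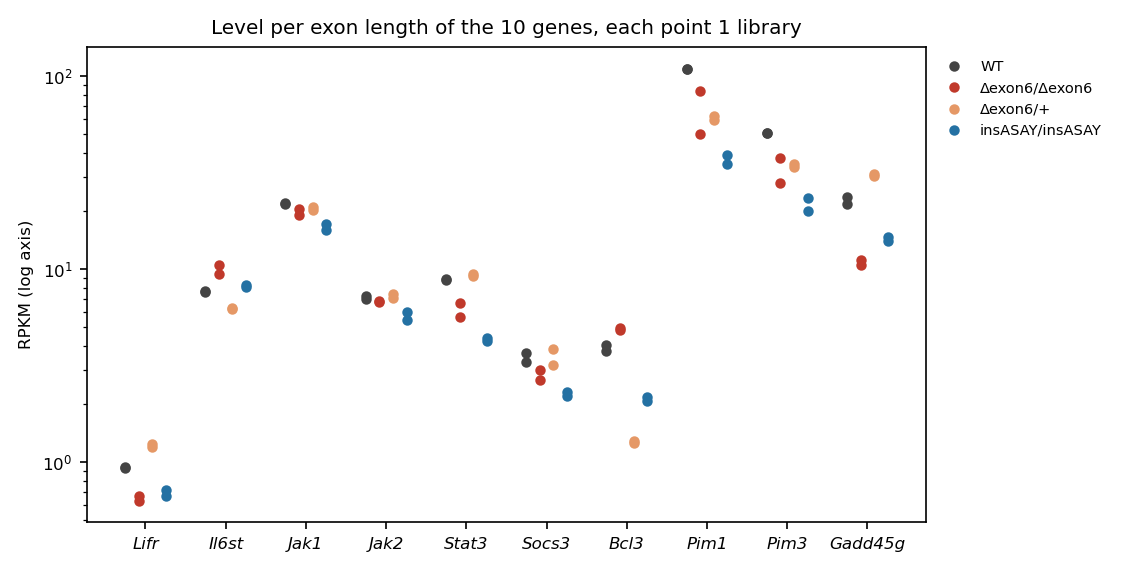
Level of each of the 10 genes in RPKM on a log axis, with 1 point per library coloured by genotype. *Lifr* lies lowest in every genotype and *Pim1* highest, and the wild-type points of *Pim1*, *Pim3* and *Stat3* lie above those of TbxtΔexon6/Δexon6 and TbxtinsASAY/insASAY.

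The first comparisons set each mutant line against the same wild-type libraries, so they share their controls. Since the genes were chosen with earlier results known, the counts and shares below only describe them. In TbxtΔexon6/Δexon6 cells 5 of the 10 genes fell (*Lifr*, *Stat3*, *Pim1*, *Pim3* and *Gadd45g*) and none rose. Over all tested genes 12.7% were called in this comparison, 6.59% lower and 6.12% higher. In TbxtΔexon6/+ cells 3 genes fell (*Bcl3*, *Pim1* and *Pim3*) and none rose, against 13.5% of all tested genes called, 6.89% lower and 6.60% higher. In TbxtinsASAY/insASAY cells 6 genes fell (*Stat3*, *Socs3*, *Bcl3*, *Pim1*, *Pim3* and *Gadd45g*) and none rose, against 21.3% of all tested genes called, 9.85% lower and 11.5% higher. The median log2 fold change of the 10 genes was -0.42 in TbxtΔexon6/Δexon6, -0.04 in TbxtΔexon6/+ and -0.65 in TbxtinsASAY/insASAY cells, and the median of all tested genes was between -0.01 and 0.00 in each comparison. The median size of the change, whatever its sign, was 0.456 for the 10 genes and 0.232 for all genes in TbxtΔexon6/Δexon6, 0.334 and 0.213 in TbxtΔexon6/+, and 0.649 and 0.289 in TbxtinsASAY/insASAY cells. On the chromosomes that carry the 10 genes, the median change of all tested genes against wild-type ran from -0.05 to 0.03.

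**Figure D2:**
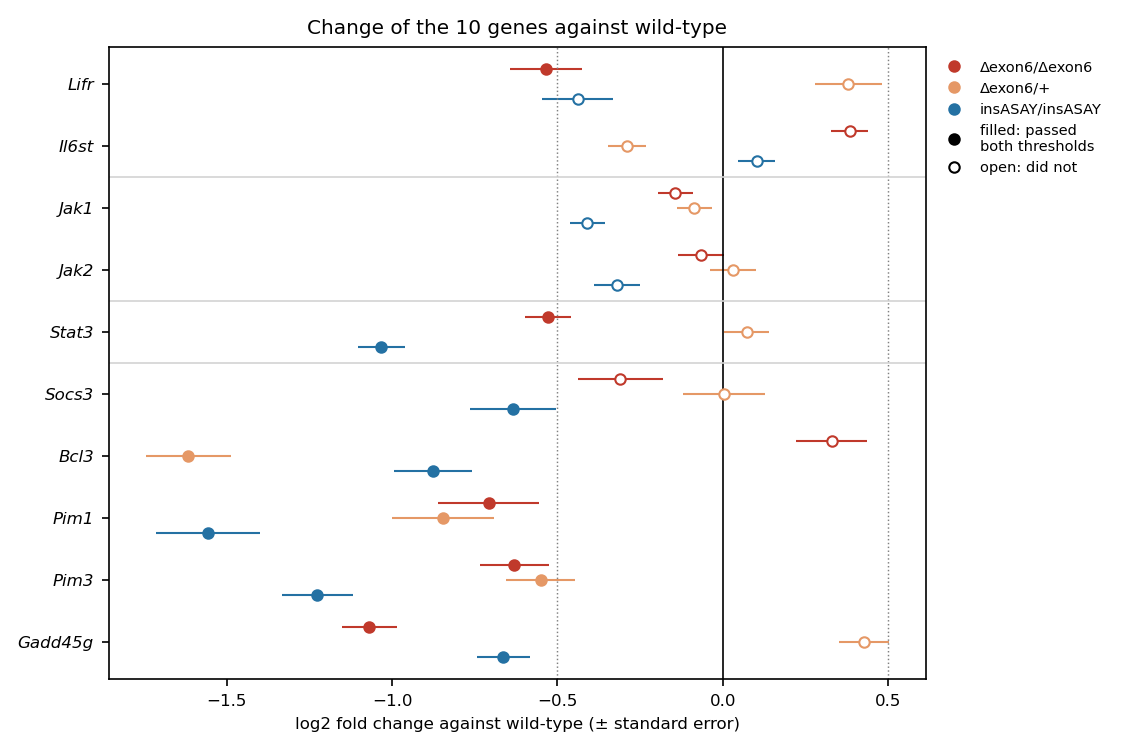
Log2 fold change of the 10 genes in each mutant line against wild-type, with bars of 1 standard error, filled points for genes past both thresholds and dotted lines at a log2 fold change of 0.5 in either direction. No filled point lies on the right of 0, and *Pim1* and *Pim3* are the only genes filled in all 3 lines.

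The receptor chains moved in opposite directions to each other in both exon 6 deletion lines. *Lifr*, the chain that binds LIF (ENSMUSG00000054263, chromosome 15, 7090614 to 7197489, plus strand, GRCm38), was measured at 10.0 and 10.2 CPM in wild-type, 7.17 and 6.78 CPM in TbxtΔexon6/Δexon6, 12.9 and 13.3 CPM in TbxtΔexon6/+ and 7.21 and 7.68 CPM in TbxtinsASAY/insASAY libraries. Both TbxtΔexon6/+ libraries were above wild-type, and all 4 libraries of the other mutant lines were below it. *Lifr* fell in TbxtΔexon6/Δexon6 cells (log2 fold change -0.53, standard error 0.109, adjusted p = 0.00252). The change was -0.44 (standard error 0.107, adjusted p = 0.00457) in TbxtinsASAY/insASAY and 0.38 (standard error 0.101, adjusted p = 0.0118) in TbxtΔexon6/+ cells, both past the p threshold and short of the fold threshold. Without TbxtΔexon6/Δexon6 replicate 2 the change in that line was -0.49, just under the fold threshold.

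*Il6st*, the signalling chain shared by the receptors of the IL-6 family (ENSMUSG00000021756, chromosome 13, 112464070 to 112510086, plus strand), was measured at 85.1 and 84.7 CPM in wild-type, 104.6 and 116.9 CPM in TbxtΔexon6/Δexon6, 69.6 and 69.3 CPM in TbxtΔexon6/+ and 92.3 and 89.98 CPM in TbxtinsASAY/insASAY libraries. No library of one genotype fell within the range of another. Relative to wild-type it changed by 0.38 on the log2 scale (standard error 0.0565, adjusted p = 0.000359) in TbxtΔexon6/Δexon6 and -0.29 (standard error 0.0578, adjusted p = 0.00194) in TbxtΔexon6/+ cells, neither past the fold threshold. In TbxtinsASAY/insASAY cells it was 0.10 (95% interval -0.02 to 0.22, adjusted p = 0.158).

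The ratio of *Il6st* to *Lifr*, each in RPKM, shows both changes at once. It was 8.17 ± 0.102 (SD, n = 2) in wild-type, 15.4 ± 1.81 in TbxtΔexon6/Δexon6, 11.9 ± 0.747 in TbxtinsASAY/insASAY and 5.14 ± 0.120 in TbxtΔexon6/+ cells. The libraries of the 4 genotypes did not overlap in this ratio, which is a description with no test. Over the 8 libraries the log2 CPM of the chains had a Pearson r of -0.93, where the 8 points are 4 genotypes with 2 libraries each.

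The kinases Jak1 and Jak2 are bound to the receptor chains and are activated when these pair, and neither gene was called in any of the 6 comparisons. *Jak1* (ENSMUSG00000028530, chromosome 4, 101152367 to 101265282, minus strand) was measured at 157.0 and 159.7 CPM in wild-type, 149.0 and 137.9 CPM in TbxtΔexon6/Δexon6, 151.3 and 147.1 CPM in TbxtΔexon6/+ and 114.8 and 123.5 CPM in TbxtinsASAY/insASAY libraries. *Jak2* (ENSMUSG00000024789, chromosome 19, 29251828 to 29313080, plus strand) was measured at 36.5 and 35.4 CPM in wild-type, 34.1 and 34.5 CPM in TbxtΔexon6/Δexon6, 37.5 and 35.8 CPM in TbxtΔexon6/+ and 27.5 and 30.0 CPM in TbxtinsASAY/insASAY libraries. For both kinases the TbxtinsASAY/insASAY libraries were the lowest. Their log2 fold changes against wild-type were -0.41 (standard error 0.0531, adjusted p = 5.6e-05) for *Jak1* and -0.32 (standard error 0.0696, adjusted p = 0.0022) for *Jak2*, short of the fold threshold.

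In the exon 6 deletion lines no change of a kinase passed the p threshold. For *Jak1* the log2 fold change was -0.14 (95% interval -0.26 to -0.03, adjusted p = 0.0504) in TbxtΔexon6/Δexon6 and -0.09 (95% interval -0.20 to 0.03, adjusted p = 0.243) in TbxtΔexon6/+ cells. For *Jak2* it was -0.07 (95% interval -0.21 to 0.08, adjusted p = 0.492) and 0.03 (95% interval -0.12 to 0.18, adjusted p = 0.783).

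*Stat3*, the transcription factor that carries the LIF signal to the nucleus (ENSMUSG00000004040, chromosome 11, 100885098 to 100939540, minus strand), was measured at 85.0 and 83.5 CPM in wild-type, 63.3 and 53.7 CPM in TbxtΔexon6/Δexon6, 87.8 and 89.4 CPM in TbxtΔexon6/+ and 40.4 and 42.0 CPM in TbxtinsASAY/insASAY libraries. The TbxtinsASAY/insASAY libraries were lowest, the TbxtΔexon6/Δexon6 libraries came next, and the TbxtΔexon6/+ libraries lay slightly above wild-type. *Stat3* fell by 1.03 on the log2 scale in TbxtinsASAY/insASAY cells (standard error 0.0705, adjusted p = 1.3e-06), to 0.489 of its wild-type level. In TbxtΔexon6/Δexon6 cells it fell by 0.53 (standard error 0.0689, adjusted p = 0.000184), to 0.693 of the wild-type level. The difference in TbxtΔexon6/+ cells was 0.07 (95% interval -0.07 to 0.22, adjusted p = 0.455). Without TbxtΔexon6/Δexon6 replicate 2 the change in that line was -0.41, past the p threshold but not the fold threshold. *Stat3* overlaps *Stat5a* on the opposite strand over 72 exonic bases, and *Stat5a* had 230 to 347 reads per library, against at least 1108 for *Stat3*.

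*Socs3*, the feedback inhibitor (ENSMUSG00000053113, chromosome 11, 117966079 to 117970047, minus strand), was measured at 10.7 and 9.56 CPM in wild-type, 8.62 and 7.74 CPM in TbxtΔexon6/Δexon6, 11.1 and 9.15 CPM in TbxtΔexon6/+ and 6.67 and 6.37 CPM in TbxtinsASAY/insASAY libraries. The TbxtΔexon6/+ libraries lay on either side of the wild-type pair, and the other mutant libraries lay below it. *Socs3* fell in TbxtinsASAY/insASAY cells (log2 fold change -0.64, standard error 0.130, adjusted p = 0.00146). In TbxtΔexon6/Δexon6 cells the change was -0.31 (standard error 0.128, 95% interval -0.59 to -0.03, adjusted p = 0.0758), and in TbxtΔexon6/+ cells 0.00 (95% interval -0.27 to 0.27, adjusted p = 0.983), with values of -0.15 and 0.14 when 1 or the other TbxtΔexon6/+ library was left out.

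*Bcl3* encodes an IκB family protein that acts as a transcriptional coregulator (ENSMUSG00000053175, chromosome 7, 19808462 to 19822770, minus strand). It was measured at 9.998 and 9.30 CPM in wild-type, 11.9 and 12.3 CPM in TbxtΔexon6/Δexon6, 3.18 and 3.11 CPM in TbxtΔexon6/+ and 5.36 and 5.16 CPM in TbxtinsASAY/insASAY libraries. The order of the lines differed from that of *Stat3* and *Socs3*, since the TbxtΔexon6/+ libraries were lowest and the TbxtΔexon6/Δexon6 libraries highest. *Bcl3* fell by 1.62 on the log2 scale in TbxtΔexon6/+ cells (standard error 0.128, adjusted p = 1.33e-06), the largest estimate against wild-type among the 10 genes. It fell by 0.88 in TbxtinsASAY/insASAY cells (standard error 0.117, adjusted p = 7.19e-05). In TbxtΔexon6/Δexon6 cells its change was 0.33 (standard error 0.107, adjusted p = 0.0298), short of the fold threshold.

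*Pim1* and *Pim3* encode serine/threonine kinases that promote survival and growth. *Pim1* (ENSMUSG00000024014, chromosome 17, 29490753 to 29496112, plus strand) was measured at 368 and 366 CPM in wild-type, 282 and 168 CPM in TbxtΔexon6/Δexon6, 210.3 and 198 CPM in TbxtΔexon6/+ and 118 and 131 CPM in TbxtinsASAY/insASAY libraries. All 6 mutant libraries were below wild-type, and the TbxtΔexon6/Δexon6 clones stood apart, on either side of the TbxtΔexon6/+ pair. *Pim1* fell by 0.71 (standard error 0.154, adjusted p = 0.00371) in TbxtΔexon6/Δexon6, 0.84 (standard error 0.154, adjusted p = 0.00105) in TbxtΔexon6/+ and 1.56 (standard error 0.158, adjusted p = 1.06e-05) in TbxtinsASAY/insASAY cells on the log2 scale. The TbxtΔexon6/Δexon6 value was -1.12 without replicate 1 and -0.38 without replicate 2, so that its call rests on replicate 2.

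*Pim3* (ENSMUSG00000035828, chromosome 15, 88862186 to 88865726, plus strand) was measured at 123 CPM in both wild-type libraries, at 91.7 and 67.6 CPM in TbxtΔexon6/Δexon6, 82.5 and 85.5 CPM in TbxtΔexon6/+ and 48.7 and 56.5 CPM in TbxtinsASAY/insASAY libraries. As for *Pim1*, every mutant library was below wild-type, the TbxtinsASAY/insASAY pair was lowest, and the TbxtΔexon6/+ pair lay between the TbxtΔexon6/Δexon6 clones. *Pim3* fell by 0.63 (standard error 0.105, adjusted p = 0.000767) in TbxtΔexon6/Δexon6, 0.55 (standard error 0.105, adjusted p = 0.00139) in TbxtΔexon6/+ and 1.23 (standard error 0.108, adjusted p = 4.33e-06) in TbxtinsASAY/insASAY cells on the log2 scale. The TbxtΔexon6/Δexon6 value was -0.42 without replicate 2 of that line, under the fold threshold. Over the 8 libraries *Pim1* and *Pim3* had a Pearson r of 0.98 in log2 CPM, the highest of any pair among the 10 genes.

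*Gadd45g* encodes a stress-response protein that binds regulators of the cell cycle (ENSMUSG00000021453, chromosome 13, 51846678 to 51848468, plus strand). It was measured at 25.7 and 27.8 CPM in wild-type, 13.2 and 12.4 CPM in TbxtΔexon6/Δexon6, 36.5 and 35.5 CPM in TbxtΔexon6/+ and 17.3 and 16.5 CPM in TbxtinsASAY/insASAY libraries. The 4 genotypes formed separate levels, in the same order as *Lifr*. *Gadd45g* fell by 1.07 on the log2 scale in TbxtΔexon6/Δexon6 cells (standard error 0.0825, adjusted p = 7.54e-06), to 0.477 of its wild-type level, and by 0.66 in TbxtinsASAY/insASAY cells (standard error 0.0793, adjusted p = 3.17e-05). In TbxtΔexon6/+ cells the change was 0.43 (standard error 0.0750, adjusted p = 0.000787), past the p threshold only.

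**Figure D3:**
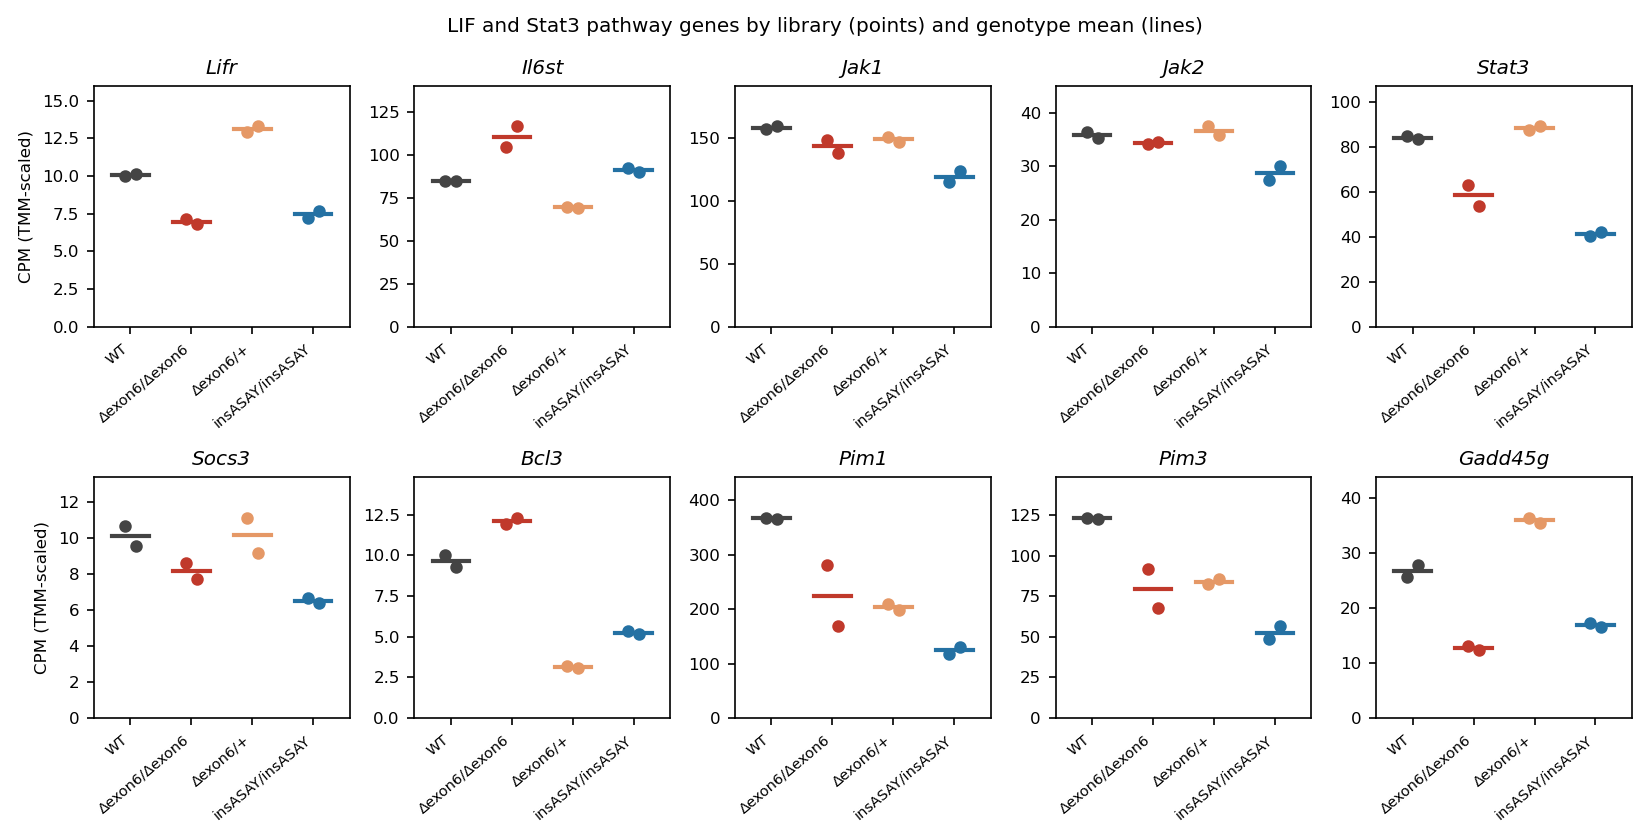
CPM of each of the 10 genes in the 8 libraries, with points for libraries, a line for the mean of each genotype and axes that start at 0. *Pim1* and *Pim3* are below wild-type in all 6 mutant libraries, *Stat3* is low in TbxtinsASAY/insASAY and intermediate in TbxtΔexon6/Δexon6, and *Bcl3* is low in TbxtΔexon6/+ and TbxtinsASAY/insASAY.

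The mutant lines were also compared with each other. A line can differ in its clone and editing history as well as in its edit, and these cannot be told apart here. Between TbxtΔexon6/+ and TbxtΔexon6/Δexon6 cells 5 of the 10 genes were called, against 22.2% of all tested genes (11.2% higher and 11.0% lower in TbxtΔexon6/+). *Lifr* (0.91, standard error 0.107, adjusted p = 1.85e-05), *Stat3* (0.60, standard error 0.0690, adjusted p = 1.64e-05) and *Gadd45g* (1.496, standard error 0.0813, adjusted p = 4.93e-08) were higher on the log2 scale in cells with 1 deleted allele. *Il6st* (-0.67, standard error 0.0574, adjusted p = 1.4e-06) and *Bcl3* (-1.95, standard error 0.126, adjusted p = 1.5e-07) were lower. The differences of *Pim1* (-0.14, 95% interval -0.47 to 0.20, adjusted p = 0.495) and *Pim3* (0.08, 95% interval -0.15 to 0.31, adjusted p = 0.565) were within the spread of the TbxtΔexon6/Δexon6 clones. Their sign turned with the clone that was left out, from -0.46 to 0.28 for *Pim1* and from -0.13 to 0.31 for *Pim3*. The *Stat3* difference was 0.48 without TbxtΔexon6/Δexon6 replicate 2, under the fold threshold.

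TbxtinsASAY/insASAY cells were lower than TbxtΔexon6/Δexon6 cells in 4 of the 10 genes and higher in none, against 5.16% of all tested genes called (2.38% lower and 2.79% higher). The 4 were *Stat3* (-0.50, standard error 0.0719, adjusted p = 0.000537), *Bcl3* (-1.21, standard error 0.115, adjusted p = 2.63e-05), *Pim1* (-0.85, standard error 0.158, adjusted p = 0.00317) and *Pim3* (-0.60, standard error 0.109, adjusted p = 0.00293), on the log2 scale. *Lifr* differed by 0.10 between these lines (95% interval -0.15 to 0.34, adjusted p = 0.620), and *Socs3* by -0.33 (95% interval -0.62 to -0.04, adjusted p = 0.121). *Bcl3* alone was called without TbxtΔexon6/Δexon6 replicate 1, where *Stat3* stood at -0.40, *Pim1* at -0.45 and *Pim3* at -0.38. It was also the 1 gene called without TbxtinsASAY/insASAY replicate 1.

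TbxtinsASAY/insASAY cells differed from TbxtΔexon6/+ cells in 7 of the 10 genes, against 27.5% of all tested genes (14.6% higher and 13.0% lower). *Lifr*, *Stat3*, *Socs3*, *Pim1*, *Pim3* and *Gadd45g* were lower in TbxtinsASAY/insASAY cells, with log2 fold changes from -0.64 for *Socs3* to -1.11 for *Stat3*. *Bcl3* was higher, by 0.74 (standard error 0.138, adjusted p = 0.000583). The difference of *Socs3* had an adjusted p = 0.00118 and was -0.49 without TbxtΔexon6/+ replicate 1, under the fold threshold.

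The rest of the pathway was described from lists of 49 further genes, of which 46 were tested. Against wild-type, 10 of the 46 were called in TbxtΔexon6/Δexon6 (3 higher and 7 lower), 18 in TbxtΔexon6/+ (4 higher and 14 lower) and 16 in TbxtinsASAY/insASAY cells (4 higher and 12 lower). These are 21.7%, 39.1% and 34.8% of the 46, beside 12.7%, 13.5% and 21.3% of all tested genes. Their median log2 fold changes were -0.07, -0.14 and -0.29, nearer to 0 in TbxtΔexon6/Δexon6 and TbxtinsASAY/insASAY cells than those of the 10 genes.

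Of 7 genes for cytokines of the family, 4 were tested. None was called in TbxtΔexon6/Δexon6, 2 in TbxtΔexon6/+ and 1 in TbxtinsASAY/insASAY cells, where 12.7%, 13.5% and 21.3% of all tested genes were called. *Lif*, the ligand itself, was transcribed in these cells at a mean of 22.7 CPM in wild-type, 21.04 CPM in TbxtΔexon6/Δexon6, 14.2 CPM in TbxtΔexon6/+ and 11.5 CPM in TbxtinsASAY/insASAY cells. It fell in TbxtΔexon6/+ (log2 fold change -0.68, standard error 0.0858, adjusted p = 6.01e-05) and TbxtinsASAY/insASAY cells (-0.98, standard error 0.0871, adjusted p = 4.59e-06), and the change in TbxtΔexon6/Δexon6 cells was -0.11 (adjusted p = 0.309). *Il11*, another ligand that signals through Il6st, also fell in TbxtΔexon6/+ cells (-1.10, standard error 0.378, adjusted p = 0.0413), at a level under 1 CPM in wild-type. Of the 4 genes for ligand-specific receptors, 1 was called in any line, *Il6ra*, the IL-6 receptor chain. It rose in TbxtinsASAY/insASAY cells (0.60, standard error 0.188, adjusted p = 0.0183). The same shares of all tested genes stand beside this count.

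Of 8 other Jak and Stat genes, *Jak3* fell in all 3 lines, with log2 fold changes of -0.66 (adjusted p = 0.0153), -0.54 (adjusted p = 0.0417) and -0.55 (adjusted p = 0.0244) in TbxtΔexon6/Δexon6, TbxtΔexon6/+ and TbxtinsASAY/insASAY cells, and no other was called against wild-type. *Jak3*, which works with a receptor chain of lymphoid cytokines, had a mean of 3.65 CPM in wild-type, from 92 to 107 reads per library. The 1 of 8 genes called in each line stands beside 12.7%, 13.5% and 21.3% of all tested genes called in these lines.

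Of 14 genes for inhibitors and phosphatases of the pathway, 3 were called in TbxtΔexon6/Δexon6, 3 in TbxtΔexon6/+ and 4 in TbxtinsASAY/insASAY cells, where 12.7%, 13.5% and 21.3% of all tested genes were called. *Cish* fell in all 3 lines, from 6.38 CPM in wild-type, with log2 fold changes of -0.75 (adjusted p = 0.00422), -0.86 (adjusted p = 0.00165) and -1.23 (adjusted p = 0.000101) in the same order of lines. *Socs2*, of the same family as *Socs3*, fell in TbxtΔexon6/Δexon6 (-0.55, adjusted p = 0.00681) and TbxtinsASAY/insASAY cells (-0.72, adjusted p = 0.000746), and *Socs1* in TbxtΔexon6/+ cells (-0.87, adjusted p = 0.000629). *Socs7* fell in TbxtinsASAY/insASAY cells (-0.56, adjusted p = 6.94e-06). The genes that rose were *Socs5* in TbxtΔexon6/Δexon6 (0.53), *Pias3*, for an inhibitor of Stat3, in TbxtΔexon6/+ (0.51) and *Ptpn6*, for a phosphatase, in TbxtinsASAY/insASAY cells (0.54). *Pias3* lies on chromosome 3, where the 848 tested genes had a median log2 fold change of 0.32 in TbxtΔexon6/+ cells, and its call was not tested apart from that shift.

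Of 11 other genes known as Stat3 targets, 2 rose and 3 fell in TbxtΔexon6/Δexon6, 1 rose and 7 fell in TbxtΔexon6/+, and 1 rose and 5 fell in TbxtinsASAY/insASAY cells. Of all tested genes 6.12%, 6.60% and 11.5% rose and 6.59%, 6.89% and 9.85% fell in these lines. *Tfcp2l1*, encoding a transcription factor of naive pluripotency, and *Icam1* fell in every line. *Tfcp2l1* fell by 0.90, 0.54 and 1.07 and *Icam1* by 0.66, 1.33 and 1.44 on the log2 scale in TbxtΔexon6/Δexon6, TbxtΔexon6/+ and TbxtinsASAY/insASAY cells. *Gbx2*, a homeobox gene that sustains self-renewal, went the other way in every line, with log2 fold changes of 0.95, 1.62 and 2.01 from a mean of 2.88 CPM in wild-type. *Klf5*, for another pluripotency factor, fell in TbxtΔexon6/+ (-0.73) and TbxtinsASAY/insASAY cells (-1.002), and *Klf4* in TbxtΔexon6/+ cells (-0.61).

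*Junb*, for a subunit of the AP-1 transcription factor, fell in TbxtΔexon6/+ (-1.40, adjusted p = 2.12e-06) and TbxtinsASAY/insASAY cells (-1.24, adjusted p = 5.65e-06). *Mcl1*, which protects cells from apoptosis, fell in TbxtΔexon6/Δexon6 (-0.53, adjusted p = 0.000459) and TbxtinsASAY/insASAY cells (-0.75, adjusted p = 1.73e-05). *Bcl2l1*, of the same family, fell in TbxtΔexon6/+ cells (-0.55, adjusted p = 6.47e-06). *Myc* rose in TbxtΔexon6/Δexon6 cells, from 8.11 to 14.9 CPM (log2 fold change 0.88, adjusted p = 0.000426), and fell in TbxtΔexon6/+ cells, to 3.24 CPM (-1.32, adjusted p = 4.87e-05).

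**Figure D4:**
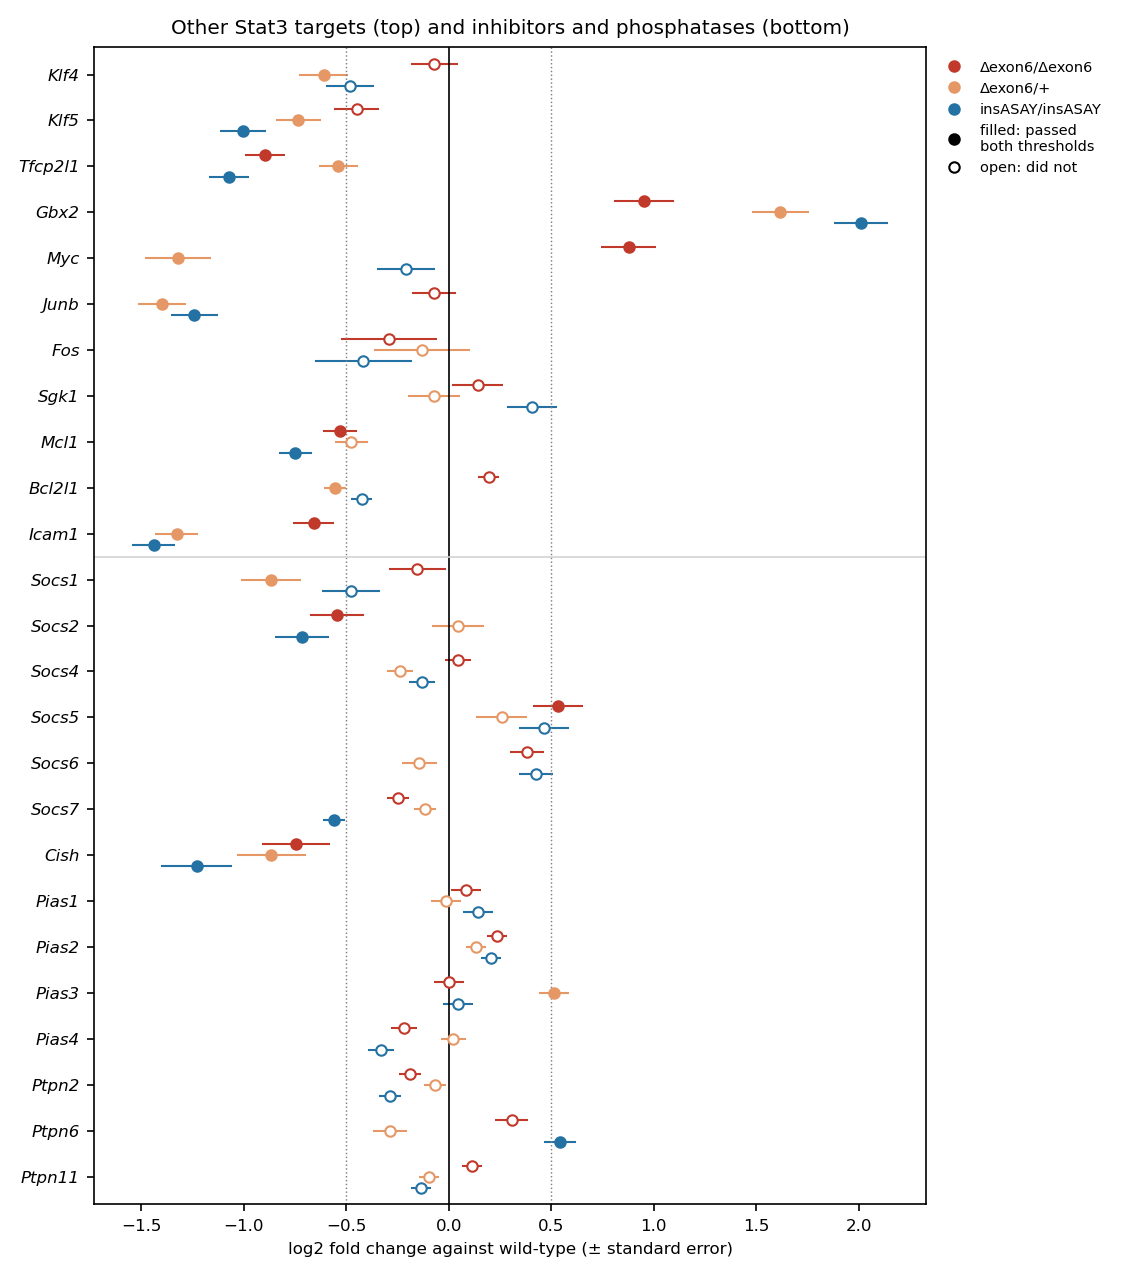
Log2 fold change against wild-type of 11 other Stat3 targets (top) and 14 inhibitors and phosphatases (bottom), drawn as in the plot of the 10 genes, with bars of 1 standard error. *Gbx2* is higher and *Tfcp2l1*, *Icam1* and *Cish* are lower in all 3 lines, and *Myc* is higher in TbxtΔexon6/Δexon6 and lower in TbxtΔexon6/+.

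Marker genes of cell types moved with some of these changes, and their part in the results was not tested. Of 8 markers of undifferentiated ES cells, 3 fell in TbxtΔexon6/Δexon6, 5 fell and 2 rose in TbxtΔexon6/+, and 2 fell in TbxtinsASAY/insASAY cells. Of all tested genes 12.7%, 13.5% and 21.3% were called in these lines. *Nanog* and *Dppa5a* fell in all 3 lines, and *Pou5f1* fell in TbxtΔexon6/Δexon6 and TbxtΔexon6/+ cells. In TbxtΔexon6/Δexon6, TbxtΔexon6/+ and TbxtinsASAY/insASAY cells *Nanog* fell by 1.04, 0.80 and 0.73 on the log2 scale, and *Dppa5a* by 1.44, 1.58 and 1.01. The 2 that rose in TbxtΔexon6/+ cells were *Sox2*, from a mean of 68.7 to 113 CPM, and *Lin28a*, from 292 to 513 CPM. The means of *Lin28a* were also above wild-type in the other lines, where it was not called. The 7 markers of embryonic fibroblasts summed to 22.3 to 25.9 CPM in wild-type, 15.4 to 18.5 CPM in TbxtΔexon6/Δexon6, 24.3 to 24.6 CPM in TbxtΔexon6/+ and 12.8 to 13.3 CPM in TbxtinsASAY/insASAY libraries. Of the 5 that were tested, 2 fell in TbxtΔexon6/Δexon6, 1 fell and 2 rose in TbxtΔexon6/+, and 4 fell in TbxtinsASAY/insASAY cells, where *Postn* was at 0. The highest level of any fibroblast marker in any library was 14.2 CPM, of *Col1a1*.

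The genes most like *Stat3* and *Socs3* over the 8 libraries were found by the Pearson r of log2 CPM among the 12827 tested genes that averaged 2 CPM or more. Nearest to *Stat3* were *Irf2bp2* (0.998), *Atxn2l* (0.997), *Naa25* (0.997), *Mapk8ip3* (0.997) and *Dmxl2* (0.996). Nearest to *Socs3* were *Plce1* (0.992), *Ift52* (0.987), *Ric1* (0.984), *Ndufs6* (0.980) and *Map3k2* (0.979). Within the 10 genes, *Stat3* had an r of 0.95 with *Socs3*, 0.92 with *Jak1*, 0.91 with *Jak2* and -0.14 with *Bcl3*. The 8 points are 4 genotypes with 2 libraries each, and a high r does not need the same order of genotypes (*Jak1* was highest in wild-type and *Stat3* in TbxtΔexon6/+).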

How the data were processed

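Poly(A) RNA of 8 libraries was sequenced with strand kept. The authors aligned reads with STAR 2.7.2a to mm10 (the GRCm38 build) and deposited raw counts per gene. Their own differential tests used DESeq2 1.40.2. The annotation behind the counts is not given in the sources used here. Counts of the strand opposite to the first read were used (the other strand held 4.11% to 4.78% of stranded reads), without the summary lines that 7 of the 8 files carry. Symbols and exon lengths came from GENCODE M21, which matched 48058 of 48440 identifiers.

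One edgeR 4.0.16 fit in R 4.3.3 covered all 8 libraries (TMM, filterByExpr with a minimum count of 10 and total of 15, glmQLFTest, 1 coefficient per genotype), with Benjamini-Hochberg adjustment over 17049 genes. The 6 comparisons used thresholds of 0.05 and 0.5, those of the study. Log2 CPM used a prior count of 2. The 10 genes and all lists were chosen with earlier results of these data known. All 10 were named whatever their values, and other list genes only when called, except *Stat5a* (overlapping *Stat3*), *Sgk1* (motif) and *Postn* (at 0), which were named after their values were seen. Standard errors are the log2 fold change divided by the root of the test's F. The fit was tested on simulated counts. Alternatives were DESeq2 1.42.0, its size factors, other filters, unstranded counts, fits of 2 genotypes, a replicate block, the TREAT test and leaving out each library. Leaving out chromosome 3 was chosen after seeing the data. Replicates of each genotype differed by more than sampling noise (chi-square per degree of freedom 2.65 to 10.5, the highest between the TbxtΔexon6/Δexon6 clones).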

Additional observations from a re-analysis of the deposited data

Results flagged for a closer look

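The following 7 differences were singled out because a gene moved in opposite directions from wild-type in a pair of mutant lines, each with an adjusted p under 0.05, and the lines themselves differed past both thresholds of the edgeR quasi-likelihood test. Between TbxtΔexon6/+ and TbxtΔexon6/Δexon6 cells these were *Lifr* (log2 difference 0.91), *Gadd45g* (1.496), *Il6st* (-0.67) and *Bcl3* (-1.95). *Lifr* and *Gadd45g* were thus above wild-type with 1 deleted allele and below it with both, and *Il6st* and *Bcl3* the reverse. Between TbxtinsASAY/insASAY and TbxtΔexon6/+ cells they were *Lifr* (-0.82) and *Gadd45g* (-1.09), both lower in the former. Between TbxtinsASAY/insASAY and TbxtΔexon6/Δexon6 cells it was *Bcl3* (-1.21). In each of these pairs the 2 libraries of one line lay apart from those of the other. The selection by p and fold makes this likely, so it adds no support. The wild-type libraries are shared by the changes against wild-type, and groups of 2 libraries are too small to look for a library that stands apart.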

How the results depend on the processing

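Of 480 log2 fold changes of the 10 genes under the 8 alternatives that keep all libraries and the same thresholds (all but the TREAT test), 479 kept their direction and call. The exception among these 8 was *Stat3* in TbxtinsASAY/insASAY against TbxtΔexon6/Δexon6 with 10 counts required in every library (-0.49). Leaving out 1 library kept 463 of 480, ended 12 calls and turned 5 signs. In TbxtΔexon6/+ against wild-type, where signs turned for *Jak2* and *Socs3*, values without 1 library ranged from -0.00494 to 0.0627 and from -0.15 to 0.14. In TbxtΔexon6/+ against TbxtΔexon6/Δexon6, where signs turned for *Pim1* and *Pim3*, they ranged from -0.46 to 0.28 and from -0.13 to 0.31. Called genes among the 10 ranged from 1 to 5 for TbxtΔexon6/Δexon6 against wild-type (1 without its replicate 2), 3 to 3 for TbxtΔexon6/+, 6 to 6 for TbxtinsASAY/insASAY, 4 to 5 for TbxtΔexon6/+ against TbxtΔexon6/Δexon6, 1 to 4 for TbxtinsASAY/insASAY against TbxtΔexon6/Δexon6 and 6 to 7 for TbxtinsASAY/insASAY against TbxtΔexon6/+. With 1 library left in a genotype, it is assumed to vary like the others.

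The TREAT test, which asks for a change significantly past 0.5, ended many of the calls. It called 1 of the 10 in TbxtΔexon6/Δexon6, 1 in TbxtΔexon6/+ and 4 in TbxtinsASAY/insASAY against wild-type, 4 in TbxtΔexon6/+ against TbxtΔexon6/Δexon6, 1 in TbxtinsASAY/insASAY against TbxtΔexon6/Δexon6 and 3 against TbxtΔexon6/+. Over all genes it called 267, 775 and 1215 against wild-type in TbxtΔexon6/Δexon6, TbxtΔexon6/+ and TbxtinsASAY/insASAY cells, where the quasi-likelihood test called 2167, 2299 and 3639. Between lines it called 1548 (3778) in TbxtΔexon6/+ against TbxtΔexon6/Δexon6, 134 (880) in TbxtinsASAY/insASAY against TbxtΔexon6/Δexon6 and 2192 (4696) against TbxtΔexon6/+, with quasi-likelihood counts in parentheses. The 2167 became 3388 and 1149 without TbxtΔexon6/Δexon6 replicate 1 and 2. The 880 became 581 with DESeq2, 572 in a fit of 2 genotypes, 1529 without TbxtΔexon6/Δexon6 replicate 2 and 358 without TbxtinsASAY/insASAY replicate 1.

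With the replicate block the calls among the 10 were again 5, 3, 6, 5, 4 and 7, and no call changed. Differences between same-numbered libraries correlated at -0.00971 to 0.0494 across genes, so the numbers are treated as names and not as pairs.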

Other observations

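Relatives of the target genes did not all follow them. *Gadd45b*, a paralogue of *Gadd45g*, fell in all 3 lines, from a mean of 167 CPM in wild-type to 106, 88.7 and 40.1 CPM in TbxtΔexon6/Δexon6, TbxtΔexon6/+ and TbxtinsASAY/insASAY cells (log2 fold changes -0.66, -0.91 and -2.06, adjusted p = 0.00293, 0.00026 and 1.69e-06 by the edgeR quasi-likelihood test). *Gadd45a* fell in TbxtinsASAY/insASAY cells, from 162 to 51.2 CPM (-1.66, adjusted p = 1.32e-05). In TbxtΔexon6/+ cells *Gadd45b* fell while the log2 fold change of *Gadd45g* was 0.43. *Pim2*, the remaining Pim kinase gene, rose in TbxtΔexon6/+ (0.82, adjusted p = 1.63e-05) and TbxtinsASAY/insASAY cells (0.55, adjusted p = 0.000273), where *Pim1* and *Pim3* fell. *Nfkb1* and *Nfkb2* encode the NF-κB subunits that Bcl3 binds, and in TbxtΔexon6/+ cells, where *Bcl3* fell, *Nfkb1* rose (0.51, adjusted p = 2.24e-05) and *Nfkb2* fell (-0.56, adjusted p = 0.000127). *Nfkb1* lies on chromosome 3, where the median log2 fold change of all 848 tested genes in TbxtΔexon6/+ cells was 0.32.

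Markers of primitive streak and of extraembryonic endoderm were low in every library. The 7 streak markers summed to 20.5 to 21.6 CPM in wild-type, 25.9 to 26.8 CPM in TbxtΔexon6/Δexon6, 13.1 to 15.9 CPM in TbxtΔexon6/+ and 19.9 to 22.9 CPM in TbxtinsASAY/insASAY libraries. *Eomes*, an early regulator of the streak and the most abundant of them, rose in TbxtΔexon6/Δexon6 (0.54, adjusted p = 0.00361) and fell in TbxtΔexon6/+ cells (-0.95, adjusted p = 0.000136). *Tbxt* itself fell in TbxtΔexon6/Δexon6 cells, from a mean of 1.63 to 0.930 CPM, with 26 and 22 reads in these libraries. They lack exon 6, so no read can fall on it there, and the part of this loss in the lower count was not tested. In TbxtΔexon6/+ cells *Fgf8* rose from 1.41 to 2.64 CPM and *Wnt3* fell from 3.50 to 2.28 CPM. In TbxtinsASAY/insASAY cells *Mixl1* rose from 0.219 to 0.822 CPM and *Wnt3* fell to 2.17 CPM. *Mixl1* rested on few reads, 5 to 7 per wild-type library and 16 to 29 per TbxtinsASAY/insASAY library. The called streak markers thus did not move together. The 6 endoderm markers summed to 15.8 to 16.1 CPM in wild-type, 10.8 to 13.7 CPM in TbxtΔexon6/Δexon6, 18.4 to 19.2 CPM in TbxtΔexon6/+ and 13.2 to 13.4 CPM in TbxtinsASAY/insASAY libraries. Of them, *Gata4* fell in TbxtΔexon6/Δexon6 (-0.67, adjusted p = 0.00224), and *Dab2* and *Foxa2* rose in TbxtΔexon6/+ cells (1.00, adjusted p = 0.000327, and 1.47, adjusted p = 0.0176). *Foxa2* also rested on few reads, 5 to 10 per wild-type library and 16 to 23 per TbxtΔexon6/+ library.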
